A study of Mus musculus with 37 samples.

Results

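The choroid plexus genes examined here were Ttr, Kl, Sostdc1, Folr1, Aqp1, Otx2, Clic6, Enpp2 and Slc4a5, measured in cortex RNA. All probe sets that the platform annotation gives to these 9 gene symbols alone were taken, which gave 14 of 45037 probe sets and 8 of 18193 genes. No probe set was listed under Enpp2, which encodes the secreted lysophospholipase autotaxin, and this gene was not analysed here. RNA was measured on 37 Affymetrix arrays from mice of 9 wk of age on a CBA and C57BL/6 background. The groups were WT (9 arrays), Hdac4HET, which carry 1 null allele of Hdac4 (9 arrays), R6/2, which are hemizygous for a transgene of mutant HTT exon 1 under the human HTT promoter (9 arrays), and Dble::R6/2, which carry both the transgene and the null allele (10 arrays). The Hdac4 null allele was made in a different mouse strain, so DNA of that strain near Hdac4 can travel with it, and R6/2 is a single transgenic line that expresses an HTT fragment and not the whole protein. The labels give each array a replicate number and a sex but do not state that each array is a separate mouse, so p-values measure the spread between these arrays.

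The choroid plexus is a sheet of epithelium in the brain ventricles that secretes cerebrospinal fluid and moves ions, water, folate and hormones between blood and fluid. Its epithelial cells are known for making transthyretin in very large amounts. It is not a part of the cortex, but the plexus of the lateral ventricle lies beneath the cortical mantle and close to the hippocampus.

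As a check of the labels, the lowest Hdac4 level on any array without the null allele was 8.28 and the highest on any array with it was 8.02, on the log2 scale used throughout, so these arrays did not overlap. The cortical neuron genes (Neurod6, Tbr1, Slc17a7 and others) had an array mean between 9.60 and 10.24. It ran from 10.02 to 10.24 in WT and from 10.01 to 10.21 in Hdac4HET. With the transgene it was lower, from 9.60 to 9.93 in R6/2 and from 9.62 to 9.94 in Dble::R6/2. Olfactory bulb genes (Doc2g, S100a5, Eomes, Tbx21 and others) were clearly raised on 7 arrays, where the mean of 12 such genes was 6.62 to 8.24, while it was 6.09 or lower on all others. In Hdac4HET the raised arrays were replicates 1, 4, 5, 6, 7 and 9, and in Dble::R6/2 only replicate 10. Xist, the Y-linked genes or both went against the labelled sex on 6 arrays, of which 1 was WT (replicate 9), 3 were Hdac4HET (replicates 1, 5 and 9) and 2 were Dble::R6/2 (replicates 1 and 9). On 2 of them, Hdac4HET replicates 5 and 9, Xist (11.2 and 11.7) and the Y-linked mean (6.56 and 5.89) were both high. The main comparisons with Hdac4HET are given with and without the 7.

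Ttr encodes transthyretin, the carrier of thyroxine and of retinol with its binding protein, and is the most used marker of choroid plexus epithelium. On its brightest probe set (1454608_x_at) the Ttr level in WT had a lowest value of 11.77, a median of 13.91 and a highest value of 13.99. In Hdac4HET the level ran from 11.50 through a median of 12.35 to 13.74. Low arrays were present in every genotype, and the WT arrays were mostly bunched near their top value. Ttr was among the 20 highest probe sets on 13 arrays, and the highest value of any probe set was 14.45. What part this upper end had in the bunching, the ranges and the changes of Ttr was not tested. In R6/2 the Ttr level ran from 11.57 through a median of 13.78 to 14.35, and in Dble::R6/2 from 10.38 through 13.55 to 14.25. All 4 groups overlapped. The lowest array of all was Dble::R6/2 replicate 3 and the highest R6/2 replicate 5, which differed 15.7-fold. The other 3 Ttr probe sets followed the brightest closely, with r between 0.993 and 0.998 after the genotype means were subtracted, and their range was up to 25.1-fold, on 1451580_a_at.

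The SD of Ttr within genotypes was 0.98, which was higher than that of 99.8% of all probe sets. The other members also varied more than most probe sets. Their SD percentiles ran from 89.2 for the second Kl probe set (1451892_at) to 99.7 for Sostdc1. Between the lowest and the highest array, the brightest probe set differed 10.9-fold for Sostdc1, 7.55-fold for Folr1, 6.39-fold for Kl, 5.51-fold for Clic6, 5.08-fold for Otx2, 3.92-fold for Aqp1 and 2.08-fold for Slc4a5. The mean levels of Slc4a5, Otx2 and Aqp1 were low, at percentiles 12.9, 26.8 and 31.1 of all probe sets. What part the low levels had in their small ranges was not tested. Dble::R6/2 replicate 4 was the lowest array for Aqp1, Otx2, Clic6 and Slc4a5, and R6/2 replicate 5 the highest for Kl and Sostdc1 as well as Ttr.

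**Figure D1:**
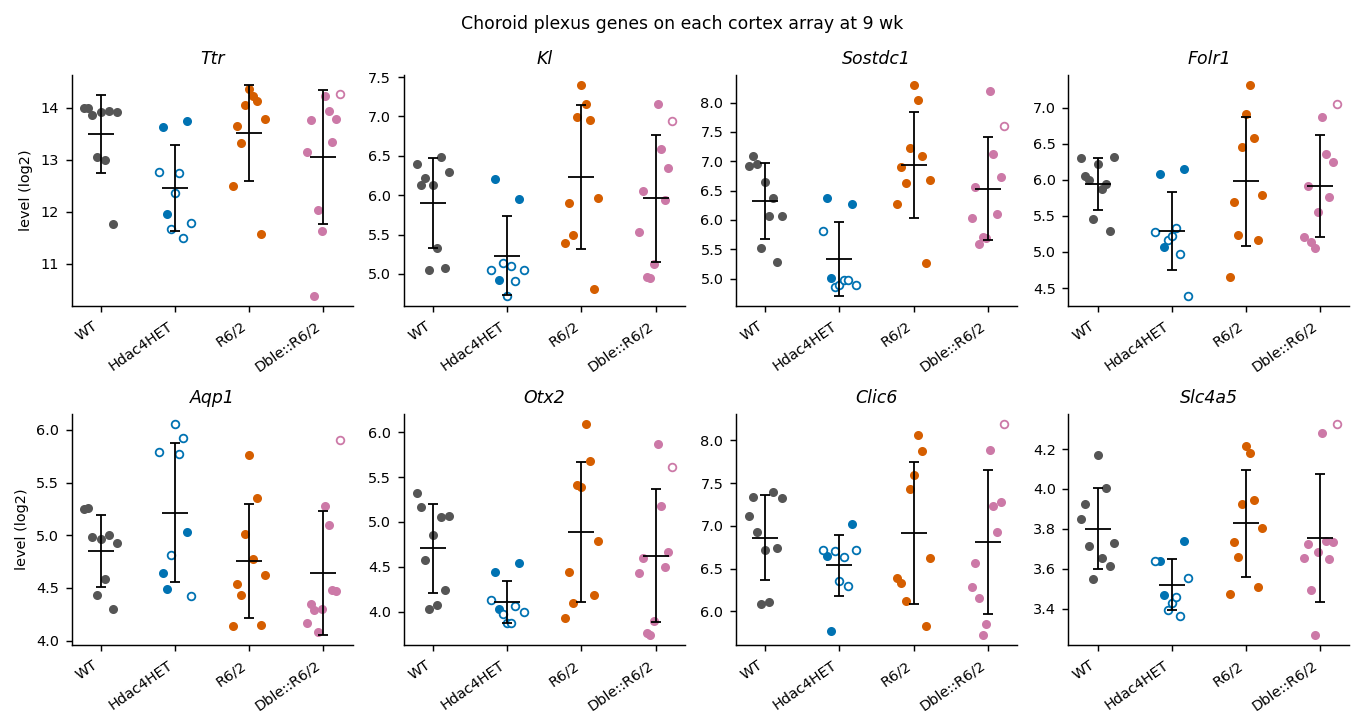
Level (log2) of the brightest probe set of each choroid plexus gene on each array, by genotype. Points are arrays, open points are the 7 arrays with raised olfactory bulb genes, and the bar and whiskers are the mean and SD. Each genotype spans high and low arrays, as for Ttr, from 10.38 to 14.35 over all arrays, and most Hdac4HET arrays sit low for Ttr, Kl, Sostdc1 and Otx2.

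The secreted and cell surface proteins come first. Kl encodes klotho, a co-receptor for the hormone Fgf23 that is also shed into the cerebrospinal fluid. The Kl level (1423400_at) ran from 5.05 through a median of 6.13 to 6.48 in WT and from 4.72 through 5.05 to 6.21 in Hdac4HET. It ran from 4.81 through 5.96 to 7.40 in R6/2 and from 4.95 through 5.99 to 7.15 in Dble::R6/2. The groups overlapped, and the highest arrays were found among R6/2 and Dble::R6/2. The second Kl probe set ranged only from 3.90 to 4.86 and did not show this spread. Its mean level was at percentile 21.5 of all probe sets, so its flat signal may say little about Kl.

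Sostdc1 encodes a secreted antagonist of BMP and Wnt signals. Its level (1449340_at) ran from 5.28 through a median of 6.36 to 7.09 in WT and from 4.85 through 4.97 to 6.38 in Hdac4HET. It ran from 5.27 through 6.90 to 8.30 in R6/2 and from 5.59 through 6.33 to 8.20 in Dble::R6/2. Most Hdac4HET arrays lay below every array of Dble::R6/2, but the groups overlapped through Hdac4HET replicates 1, 2 and 8. Folr1 encodes folate receptor alpha, through which the plexus delivers folate to the cerebrospinal fluid. The Folr1 level ran from 5.29 through 6.00 to 6.32 in WT, from 4.39 through 5.22 to 6.15 in Hdac4HET, from 4.66 through 5.78 to 7.31 in R6/2 and from 5.05 through 5.83 to 7.04 in Dble::R6/2. All 4 groups overlapped for Folr1 too.

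Of the transport proteins, Aqp1 is the water channel of the apical membrane, Slc4a5 a sodium bicarbonate cotransporter of the same membrane, and Clic6 a chloride intracellular channel protein. The Aqp1 level ran from 4.30 through a median of 4.96 to 5.25 in WT, from 4.42 through 5.03 to 6.05 in Hdac4HET, from 4.14 through 4.62 to 5.76 in R6/2 and from 4.08 through 4.41 to 5.90 in Dble::R6/2. Unlike the other members, Aqp1 had its highest arrays in Hdac4HET. The Clic6 level (1454866_s_at) ran from 6.09 through 6.93 to 7.39 in WT, from 5.77 through 6.65 to 7.02 in Hdac4HET, from 5.83 through 6.62 to 8.06 in R6/2 and from 5.72 through 6.75 to 8.19 in Dble::R6/2. The Slc4a5 level ran from 3.55 through 3.73 to 4.17 in WT, from 3.36 through 3.47 to 3.74 in Hdac4HET, from 3.48 through 3.80 to 4.22 in R6/2 and from 3.27 through 3.70 to 4.32 in Dble::R6/2. All 4 groups overlapped for both genes.

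Otx2 encodes the homeodomain transcription factor that the choroid plexus needs to form and to be maintained. The Otx2 level ran from 4.03 through a median of 4.85 to 5.32 in WT and from 3.87 through 4.03 to 4.54 in Hdac4HET. It ran from 3.93 through 4.79 to 6.09 in R6/2 and from 3.74 through 4.55 to 5.87 in Dble::R6/2. The groups overlapped, and Hdac4HET had the narrowest spread. Because the members moved together and Otx2 is a regulator of this epithelium, promoters were searched for TAATCC, the sequence that Otx2 binds, on both strands (GGATTA on the other). RefSeq windows on GRCm38.p6, from 250 bases before a transcript start to 50 after it, were found for 4 members (Kl, Aqp1, Otx2 and Slc4a5), 7 windows in all. The motif was in 1 of these 7 windows and in 7.06% of all 32851 windows. The 1 window was upstream of a transcript of Otx2 itself, on the minus strand at chr14:48665303-48665332, with the first base of the motif at position -211 from the start. It is shown because it is the only match among the members, with the motif in capitals.
Otx2 promoter stretch: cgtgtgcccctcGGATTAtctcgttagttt
A match of these letters is a description and was not tested as a binding site.

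The members rose and fell together from array to array. For each array the number of the 8 genes above their own median over the 37 arrays was counted, using the brightest probe set of each gene. All 8 genes were above on 10 arrays and none on 9. On 15 arrays 7 or 8 genes were above, on 17 arrays 0 or 1, and on only 5 arrays a number in between. The arrays with 7 or 8 genes above numbered 6 in WT, 1 in Hdac4HET, 4 in R6/2 and 4 in Dble::R6/2. The arrays with 0 or 1 above numbered 3, 7, 3 and 4. Each genotype therefore held arrays of both kinds. In RNA of a whole tissue piece, fewer choroid plexus cells and less RNA per cell cannot be told apart.

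After the mean of each genotype was subtracted, the correlation with Ttr over 37 arrays was r = 0.86 for Kl (rho = 0.91), 0.84 for Sostdc1 (rho = 0.91), 0.79 for Folr1 (rho = 0.91), 0.77 for Otx2 (rho = 0.86), 0.72 for Slc4a5 (rho = 0.83) and 0.71 for Clic6 (rho = 0.79). Each of these 6 had a permutation p of 1e-05, the smallest that 100000 permutations can give, and an adjusted p of 1.17e-05 over the 7 correlations computed. Aqp1 followed Ttr less closely, with r = 0.52 (rho = 0.57, adjusted p = 0.00115 by permutation). On these values with genotype means subtracted, the arrays farthest from the median of Ttr were Dble::R6/2 replicate 3 and R6/2 replicate 8. Without them r was 0.86 for Kl, 0.84 for Sostdc1, 0.81 for Folr1, 0.76 for Otx2, 0.71 for Slc4a5, 0.70 for Clic6 and 0.50 for Aqp1.

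The relation was also present within the genotypes. For Kl, r lay between 0.81 and 0.90 in the 4 genotypes taken singly, for Sostdc1 between 0.81 and 0.91 and for Folr1 between 0.79 and 0.89. For Otx2 it lay between 0.75 and 0.85, for Slc4a5 between 0.63 and 0.86 and for Clic6 between 0.51 and 0.80. Aqp1 was the exception, with r = 0.90 in WT, 0.79 in R6/2 and 0.62 in Dble::R6/2 but -0.025 in Hdac4HET.

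**Figure D2:**
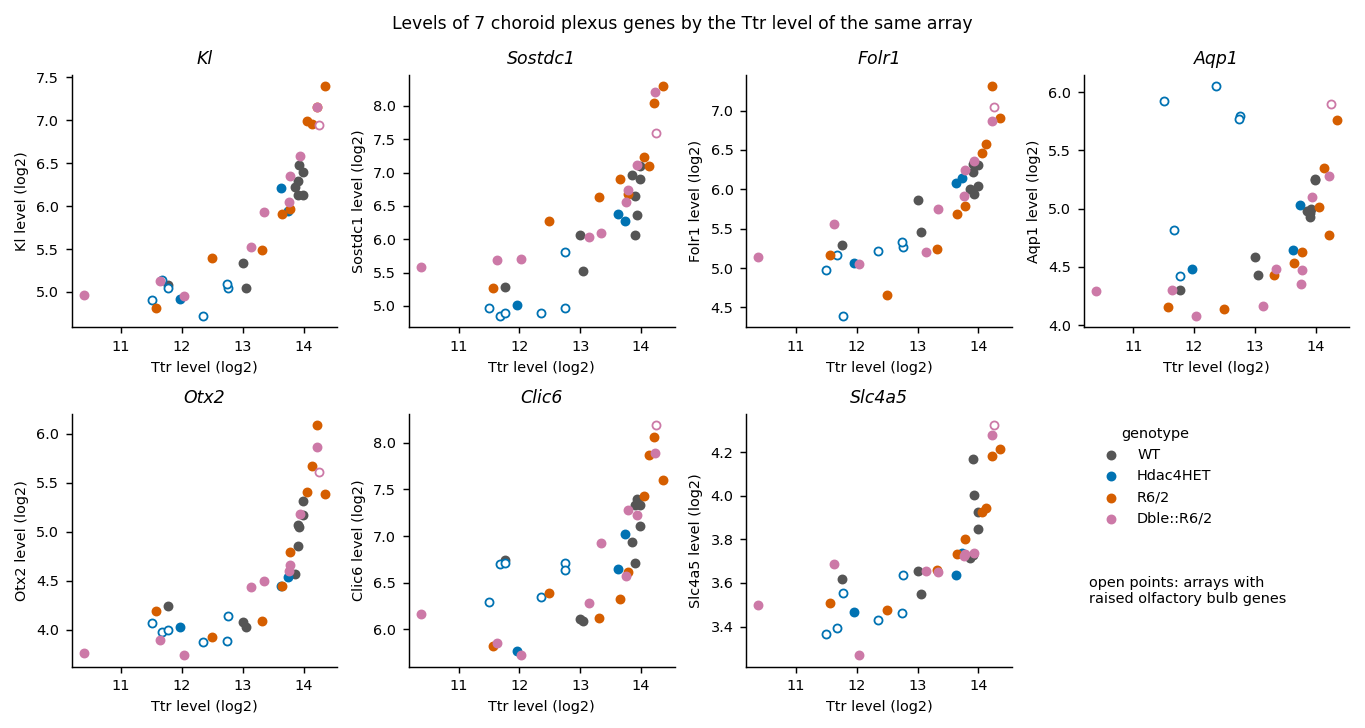
Level (log2) of 7 choroid plexus genes against the Ttr level (log2) on the same array, for 37 arrays coloured by genotype. Open points are the 7 arrays with raised olfactory bulb genes. Levels rise with Ttr, apart from 4 open Hdac4HET points for Aqp1, which lie between 5.77 and 6.05.

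Aqp1 was high on Hdac4HET replicates 1, 5, 6 and 7, at 5.79, 6.05, 5.77 and 5.92, although Ttr on these arrays was only 12.75, 12.35, 12.75 and 11.50. These were the 4 arrays with the highest olfactory bulb means, of 8.24, 7.97, 8.09 and 7.85. On Hdac4HET replicates 4 and 9, with bulb means of 6.75 and 6.62, Aqp1 was 4.82 and 4.42. Aqp1 is known to be made by olfactory ensheathing glia as well as by choroid plexus. On Dble::R6/2 replicate 10, with a bulb mean of 6.82, Aqp1 was 5.90 and Ttr was 14.25, so both were high. Without the 7 arrays the correlation of Aqp1 with Ttr was 0.71 (adjusted p = 5e-05 by permutation), and the correlations of the other 6 genes lay between 0.70 and 0.87.

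**Figure D3:**
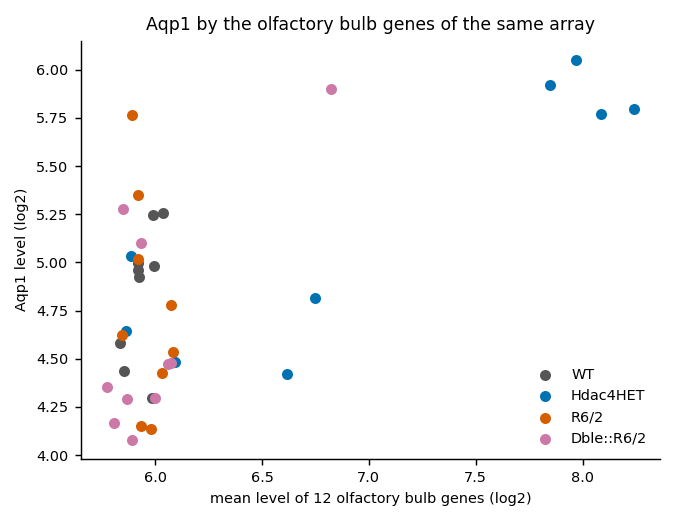
Aqp1 level (log2) against the mean level (log2) of 12 olfactory bulb genes on the same array, for 37 arrays coloured by genotype. The 4 arrays with bulb means of 7.85 to 8.24, all Hdac4HET, have Aqp1 levels of 5.77 to 6.05.

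Among all 45037 probe sets ranked by r with Ttr, the 3 other Ttr probe sets held ranks 2 to 4. Kl held rank 8, Sostdc1 ranks 9 and 13, Folr1 rank 15, Otx2 rank 19, Slc4a5 rank 27, Clic6 ranks 29 and 36, and Aqp1 rank 85. The second Kl probe set had r = 0.24 and rank 3059. Outside the members, among genes whose brightest probe set lay above the median level of all probe sets (6.19), those most like Ttr were Ecrg4 (r = 0.91), which encodes the secreted peptide precursor augurin, and Kcnj13 (r = 0.88), an inwardly rectifying potassium channel of the plexus epithelium. Above that level they were followed by Sulf1 (0.73), an extracellular heparan sulfate sulfatase, the retinol dehydrogenase gene Rdh5 (0.68), and Col9a3 (0.67), a collagen chain gene. Mdfic (0.64), Col8a1 (0.64), the receptor tyrosine kinase gene Alk (0.63), the carbonic anhydrase gene Car12 (0.63) and the copper transporter gene Slc31a1 (0.62) completed the 10 highest above that level. Kcnj13, Rdh5, Col9a3, Col8a1 and Car12 belonged to a list of other choroid plexus genes. Genes of that list below the median level also followed Ttr closely, among them F5 (r = 0.83), Lbp (0.80), Calml4 (0.79) and Steap1 (0.78).

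Of the 30 genes on that list 28 were measured, and their median r with Ttr was 0.48, with 14 over 0.5. Over all 18193 genes the median was -0.0098, and 0.28% were over 0.5. Within the list r ran from -0.28 to 0.88. Kcne2, a potassium channel subunit, had r = 0.62. F5 encodes coagulation factor V and Lbp a secreted lipopolysaccharide binding protein. Cldn2, the claudin of the leaky plexus tight junction, had r = -0.0066 on its brightest probe set. Genes of other cells and regions followed Ttr less. The median r was 0.20 for 14 meningeal fibroblast genes (highest Igf2, 0.54), 0.14 for 12 ependymal genes, 0.12 for 7 hippocampal genes, 0.033 for 8 thalamic genes and 0.021 for 7 endothelial genes. It was -0.049 for 12 olfactory bulb genes, -0.076 for 4 blood genes, -0.14 for 7 cortical neuron genes and -0.20 for 9 oligodendrocyte genes. These correlations are across genes that share the same 37 arrays and are given as a description.

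**Figure D4:**
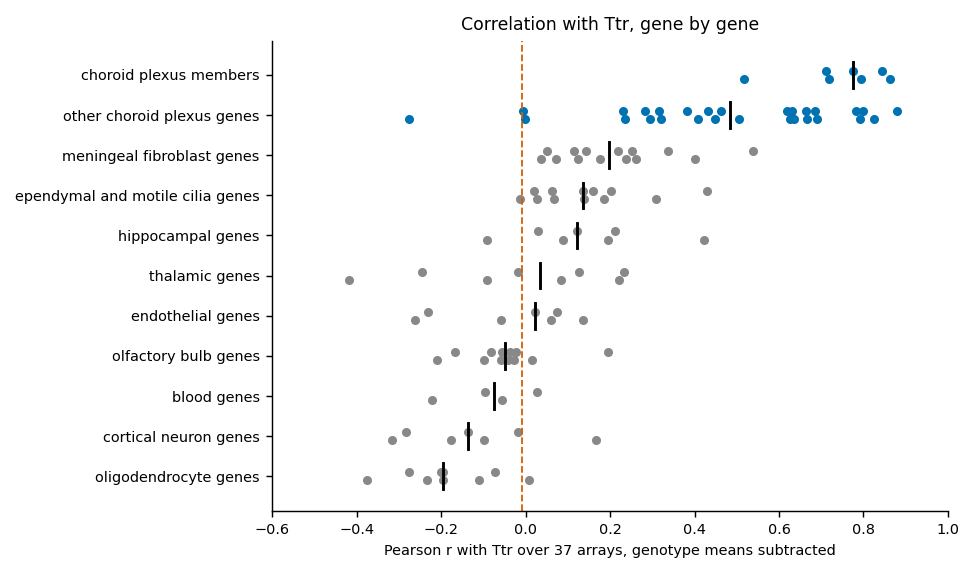
Pearson r of each gene with Ttr over 37 arrays, genotype means subtracted, by gene list, with each point a gene and the black bar the list median. The dashed line is the median of 18193 genes, -0.0098. The 7 choroid plexus members lie between 0.52 and 0.86, and the other choroid plexus genes have a median of 0.48.

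The first comparison asked how the mutant transgene changed these genes. In R6/2 against WT, 0 of the 14 probe sets passed the test, where 6.08% of all probe sets were called (limma, adjusted p under 0.05 and a change over 1.3-fold), and 0 had an unadjusted p under 0.05. A plain t-test, as the study's methods name it, also called 0. The change of Ttr was 0.018 (SE 0.43), and its 95% interval from -0.85 to 0.89 on the log2 scale allowed a change of either sign. The change of Sostdc1 was 0.61 (SE 0.34, adjusted p = 0.157) and that of Kl 0.33 (SE 0.32, adjusted p = 0.436). The median change of the 8 genes was 0.046, against -0.018 over all probe sets. Without R6/2 replicate 8, the lowest R6/2 array for Ttr, the change of Sostdc1 was 0.82 and passed the test. With the Ttr level of each array added to the model, the change of Sostdc1 was 0.60 (adjusted p = 0.00967, limma), and it was then the only member called. Ttr is itself a member that Sostdc1 followed (r = 0.84), and this model was chosen after seeing the data. Its call is therefore a description and not further support.

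Of the 28 other choroid plexus genes, 2 rose and 1 fell in R6/2 against WT, where 6.08% of all probe sets were called. Col8a1 and Col8a2, which encode the chains of collagen VIII, rose by 0.51 (SE 0.092) and 0.49 (SE 0.16), and Car12 fell by 0.83 (SE 0.16). Of 14 meningeal fibroblast genes, 5 rose in the same comparison (Col3a1, Ogn, Foxc1, Bmp5 and Islr, by 0.39 to 0.65), and none of the 12 ependymal genes was called. The part of the meningeal genes in the collagen values was not tested.

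The next comparison asked what 1 null allele of Hdac4 did without the transgene. In Hdac4HET against WT, 0 of 14 probe sets were called, against 0.291% of all probe sets, and the plain t-test called 0. Of the 14, 11 had an unadjusted limma p under 0.05. They include every Ttr and Sostdc1 probe set and genes that moved together, so they are not independent. The share of all probe sets under this cut was not worked out, so the 11 are a description and not a result about the members. The Hdac4HET mean was below the WT mean for 7 of the 8 genes. The change was -1.03 for Ttr (SE 0.43, adjusted p = 0.21), -0.98 for Sostdc1 (SE 0.34, adjusted p = 0.129), -0.67 for Kl (SE 0.32), -0.64 for Folr1 (SE 0.29) and -0.60 for Otx2 (SE 0.27). It was -0.32 for Clic6 (SE 0.29), -0.28 for Slc4a5 (SE 0.11) and 0.36 for Aqp1 (SE 0.24). The median change of the 8 genes was -0.62, against -0.0059 over all probe sets. None of the 28 other choroid plexus genes was called, and their median change was -0.17.

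Ttr was low on most of the arrays on which olfactory bulb genes were raised. In this comparison 10 of the 12 bulb genes rose, where 0.291% of all probe sets were called. On the 6 raised Hdac4HET arrays Ttr lay between 11.50 and 12.75, and on the remaining replicates 2, 3 and 8 it was 13.62, 11.96 and 13.74. Without the 7 raised arrays, which left 3 Hdac4HET arrays, the change was -0.38 for Ttr, -0.43 for Sostdc1, -0.21 for Kl, -0.17 for Folr1 and -0.13 for Aqp1. It was -0.38 for Clic6, -0.37 for Otx2 and -0.19 for Slc4a5, so Clic6 was no closer to 0 than with all arrays. None of the 8 was called. What part the raised arrays had in the difference was not tested beyond these values.

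**Figure D5:**
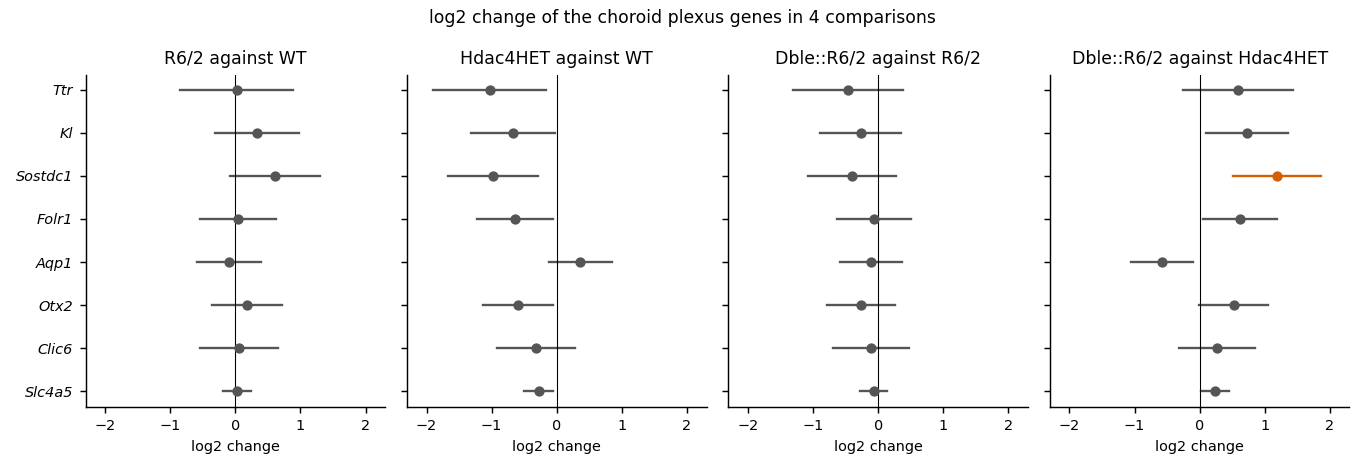
log2 change of the brightest probe set of each choroid plexus gene in 4 comparisons, with 95% intervals from the limma model of 37 arrays. Sostdc1 in Dble::R6/2 against Hdac4HET, 1.19, is the 1 gene called and is drawn in orange, while Ttr has wide intervals in each comparison.

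In Dble::R6/2 against R6/2, which asked what 1 null allele of Hdac4 did in the presence of the transgene, 0 of 14 probe sets were called, against 0.269% of all probe sets. The plain t-test called 0, and 0 had an unadjusted p under 0.05. The change of Ttr was -0.46 (SE 0.42), with a 95% interval from -1.31 to 0.39. The change of Sostdc1 was -0.40 (SE 0.33), that of Kl -0.27 (SE 0.31), and those of the other members lay between -0.26 and -0.063. The median of the 8 genes was -0.19, against 0.010 over all probe sets, and none of the 28 other choroid plexus genes was called. The Ttr value moved with single arrays: without Dble::R6/2 replicate 3 it was -0.16, and without R6/2 replicate 8 it was -0.70.

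In Dble::R6/2 against Hdac4HET, which compared mice with and without the transgene when both carried the null allele, 2 of 14 probe sets were called, against 7.1% of all probe sets. Both belonged to Sostdc1, which rose by 1.19 (SE 0.33, adjusted p = 0.00402) on its brightest probe set, a 2.29-fold change, and by 0.88 (SE 0.31, adjusted p = 0.0243) on the other. Of all probe sets 2.02% were called higher. The plain t-test also called 2. The other members did not pass the test. Their changes were 0.73 for Kl (SE 0.31, adjusted p = 0.061), 0.62 for Folr1 (SE 0.28, adjusted p = 0.082), 0.59 for Ttr (SE 0.42, adjusted p = 0.295), 0.52 for Otx2 (SE 0.26), 0.27 for Clic6 (SE 0.29), 0.24 for Slc4a5 (SE 0.11) and -0.57 for Aqp1 (SE 0.24, adjusted p = 0.0524).

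This comparison shares the Hdac4HET arrays with the one before against WT, and so the same low arrays enter both. The change of Sostdc1 was -0.98 in Hdac4HET against WT and 1.19 in Dble::R6/2 against Hdac4HET, and that of Ttr was -1.03 and 0.59. Without the 7 arrays with raised bulb genes 0 of 14 probe sets were called. The change of Sostdc1 was then 0.53 (adjusted p = 0.515, limma), that of Ttr -0.19 and that of Aqp1 -0.22. The changes of the others were 0.16 for Kl, 0.022 for Folr1, 0.18 for Otx2, 0.17 for Clic6 and 0.079 for Slc4a5. With the Ttr level of each array in the model and all arrays kept, Sostdc1 was 0.80 higher (adjusted p = 0.000757, limma) and Aqp1 -0.74 (adjusted p = 0.00453, limma). Because Ttr is itself a member and the model was chosen after seeing the data, these values are a description only.

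Of the 28 other choroid plexus genes, 4 rose and 1 fell in Dble::R6/2 against Hdac4HET, where 7.1% of all probe sets were called. Calml4, a calmodulin-like gene, rose by 0.77 (SE 0.27), Col8a1 by 0.64 (SE 0.089), Col8a2 by 0.52 (SE 0.15) and the homeobox gene Msx1 by 0.46 (SE 0.075), and Car12 fell by 0.77 (SE 0.16). The changes of Col8a1, Col8a2 and Car12 stand beside those of 0.51, 0.49 and -0.83 in R6/2 against WT, a comparison that shares no array with this one. Of the 12 bulb genes 9 fell. Without the 7 arrays with raised bulb genes, of these 5 genes only Car12 was still called, at -0.92 (SE 0.24). The changes of Col8a1, Col8a2, Msx1 and Calml4 were then 0.37, 0.39, 0.35 and 0.20, and none of these 4 passed both the p and the fold threshold.

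The interaction of R6/2 and Hdac4HET asked whether the transgene's change differed with the null allele. None of the 14 probe sets was called (0.251% of all probe sets were), and 0 had an unadjusted p under 0.05. The interaction was 0.57 for Ttr (SE 0.60, 95% interval from -0.64 to 1.78) and 0.58 for Sostdc1 (SE 0.48). Without the 7 arrays with raised bulb genes these values were -0.21 and -0.088. Of the 28 other choroid plexus genes only Wfdc2, which encodes a secreted protease inhibitor-like protein, was called, at 0.46 (SE 0.11, adjusted p = 0.041). Without the 7 arrays its interaction was 0.45 (SE 0.15, adjusted p = 0.362, limma) and no longer called.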

How the data were processed

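Values were log2 expression levels that the authors deposited for Affymetrix Mouse Genome arrays in a single table, made from total cortex RNA after quality control with RACE and the removal of low quality arrays. For the step from probe signals to log2 levels, the tool was not given in the sources used here. Medians of the arrays ran from 6.16 to 6.21, and the values were used as deposited. All 37 arrays were assigned to a genotype from their titles. The platform annotation gave a single symbol to 34945 of the 45037 probe sets, several to 932 and none to 9160. The brightest probe set, by its mean over all arrays, stood for a gene, and all member probe sets were tested. The number of arrays limits the precision.

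Genotype was fitted as a factor of 4 levels to every array with limma 3.58.1 (R 4.3.3, lmFit, eBayes with a trend), with Benjamini-Hochberg adjustment over all probe sets. A probe set was called at an adjusted p under 0.05 and a change over 1.3-fold. Correlations used 100000 permutations, two-sided, after subtracting genotype means. Scripts were tested on simulated data. Python 3.11.15 was used for correlations and figures. The members and gene lists were chosen with earlier results of these data known. By rule, all member probe sets were described, with up to 4 called genes per other list and comparison by lowest p, and the 10 genes most like Ttr among those above the median level. Calml4 and Islr, each the fifth called gene of a list, were named after their values were seen, as were the genes given as examples of correlation. Alternatives were quantile normalization, array weights, other covariates, other filters and leaving out arrays. Leaving out the 7 arrays with raised bulb genes and adding the Ttr level were chosen after seeing the data.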

Additional observations from a re-analysis of the deposited data

Results flagged for a closer look

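Among 56 groups of a member probe set in a genotype, 3 held an array set apart from the rest, all of them the Ttr level of WT replicate 8, where chance gives about 1 in 20 groups. This array was at 11.77 on 1454608_x_at, with the nearest WT array at 13.00. It was at 10.67 on 1455913_x_at, with the nearest at 11.90, and at 11.41 on 1459737_s_at, with the nearest at 12.59. These probe sets measure the same gene and are not independent. Of the 8 choroid plexus genes 1 was above its median on this array. Without it the change of Ttr in R6/2 against WT was -0.20 and in Hdac4HET against WT -1.25, neither of them called.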

How the results depend on the processing

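For the 7 correlations, the counts of called probe sets and the changes of single genes, the direction and side of the threshold held under quantile normalization, labelled sex as a covariate, no fold threshold and the plain t-test wherever each was run. In Dble::R6/2 against Hdac4HET the count of called probe sets, 2, was 5 with array weights, 1 without the arrays against the labelled sex, 0 without the 12 arrays whose bulb mean was above every WT array and 0 without the 7 clearly raised ones. Leaving out 1 array at a time gave 2 to 5 there (5 without Hdac4HET replicate 2, 4 without Hdac4HET replicate 8 or Dble::R6/2 replicate 4), and 0 to 1 in R6/2 against WT (1 without R6/2 replicate 8). In R6/2 against WT it was 1 with the Ttr level as a covariate. Kl in Dble::R6/2 against Hdac4HET was called when only the genotypes compared were fitted (adjusted p = 0.041, limma). Array weights also called Kl (adjusted p = 0.029, limma) and Folr1 (adjusted p = 0.045, limma) as higher there. They called Aqp1 as lower (adjusted p = 0.026, limma). Leaving out 1 array called Kl in 6 fits, Folr1 in 3 and Aqp1 in 8. The correlation of Aqp1 was 0.32 when genotype means were not subtracted (adjusted p = 0.0516 by permutation).

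The following changes turned in sign, none of them called. The Ttr change in R6/2 against WT was -0.023 with array weights, -0.10 without the 12 arrays and between -0.20 and 0.26 when 1 array was left out. Without the 12 arrays, Hdac4HET against WT, then with 2 Hdac4HET arrays, gave 0.19 for Ttr, 0.18 for Kl, 0.0021 for Sostdc1, 0.18 for Folr1 and -0.015 for Aqp1. Dble::R6/2 against Hdac4HET gave -0.95 for Ttr, -0.31 for Kl, -0.39 for Folr1 and -0.31 for Clic6, and the interaction gave -0.85 for Ttr and -0.37 for Sostdc1. Without the 7 arrays the values were -0.13 for Aqp1 in Hdac4HET against WT, -0.19 for Ttr in Dble::R6/2 against Hdac4HET, and -0.21 for Ttr and -0.088 for Sostdc1 in the interaction. With the Ttr level as a covariate Clic6 was 0.18 in Hdac4HET against WT and -0.018 in Dble::R6/2 against Hdac4HET. Sostdc1 in Dble::R6/2 against Hdac4HET kept its sign without the 12 arrays, at 0.090, but lost its call. Without them Col8a2 in R6/2 against WT also lost its call (0.44, adjusted p = 0.0636, limma), and Calml4 in Dble::R6/2 against Hdac4HET was -0.30. The cause was not tested.

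The labels do not say whether the replicate numbers pair the arrays. Correlations of same-numbered arrays lay between -0.18 and 0.22. Arrays with different numbers were not compared, so this range cannot decide whether the numbers pair them. With the replicate number as a block, Aqp1 in Dble::R6/2 against Hdac4HET was -0.71 and called (adjusted p = 0.00404, limma). The block also takes Dble::R6/2 replicate 10, which has no partner, out of the estimate, and leaving out that array without a block gave the same -0.71, also called. Under the block Sostdc1 stayed called, and the count of called member probe sets stayed within 1.5 times in every comparison. Over all probe sets the number called went from 121 to 20 in Dble::R6/2 against R6/2 and from 113 to 78 in the interaction. It went from 2737 to 2736 in R6/2 against WT, 131 to 130 in Hdac4HET against WT and 3196 to 3083 in Dble::R6/2 against Hdac4HET.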
